A study of Mus musculus with 6 samples.

Results

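Glo1, Dnah8, Btbd9 and Glp1r are neighbours on mouse chromosome 17, in a stretch known to vary in copy number between mouse strains. Copy number itself was not measured here. They are 4 of the 24404 genes in a table of heart transcript counts, taken by their symbols. They were chosen by earlier results of the comparison described here, that of KO-TAC with WT-TAC, so their differences between the genotypes are given as a description, with no test. The table covers 6 samples of mouse heart, 3 of genotype WT (WT-TAC) and 3 of genotype miR-204-/- (KO-TAC), which lack the microRNA miR-204. All the mice, controls included, had undergone transaortic constriction, a narrowing of the aorta that loads the left ventricle with pressure, and the hearts were taken 5 weeks later. No unoperated heart was analysed here, and the labels give no strain, age or number of animals per sample. The p-values given for other genes therefore measure the spread between these libraries, which may be partly technical.

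Glo1 encodes glyoxalase I, which acts on the adduct that methylglyoxal, a reactive by-product of glycolysis, forms with glutathione. Glyoxalase II (Hagh) then turns the product into lactate. Btbd9 encodes a BTB-domain protein that works as an adaptor of the cullin 3 ubiquitin ligase. Dnah8 encodes a heavy chain of axonemal dynein, the motor of cilia and sperm flagella, and is known mainly from testis. Glp1r encodes the receptor for the gut hormone GLP-1, best known from pancreatic beta cells and, in the heart, from atrial and pacemaker tissue.

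In hearts lacking miR-204, Glo1 was about 2.15 times its wild-type level and Dnah8 about 7.41 times, and neither overlapped between the genotypes. Of all tested genes, 4.28% were likewise higher in every KO-TAC library than in any WT-TAC library. Both genes were chosen on this contrast, so their lack of overlap is no finding of its own. The Dnah8 fold ran from 4.89 to 14.5 when 1 library was left out. Btbd9 was 1.64 times its wild-type level on average, with 1 KO-TAC library at the level of the highest WT-TAC library. Glp1r had 14 counts in all and gave no usable comparison. Of 45 other tested genes within 2 Mb on either side, 0 were called changed at an adjusted p under 0.05 in edgeR, and 1 had an unadjusted p under 0.05. Over all tested genes 3 of 12487 were called, or 0.0240%, so a count of 0 says little about so few genes. A window of 5 Mb held 207 tested genes and 2 of those 3 calls. In 5 lists of genes that share a pathway or a family with these 4, 0 of 136 tested genes were called and 3 had an unadjusted p under 0.05 in edgeR, 2.21% against 2.93% of all tested genes.

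The 4 genes span 725.3 kb, from 30215524 to 30940791 of chromosome 17 (GRCm38, GENCODE M21 annotation). Btbd9 lies first, on the minus strand from 30215524 to 30576488. Glo1 follows after 8.45 kb, also on the minus strand, from 30584936 to 30626871. Dnah8 runs the other way, on the plus strand from 30624354 to 30877365, and its annotated span overlaps that of Glo1 by 2.52 kb with 0 shared exonic bases. Glp1r comes last, 24.5 kb further on, on the plus strand from 30901817 to 30940791. The only other gene of the table between them is the noncoding 1700097N02Rik, which covers 0.744% of the Glo1 exons and 0.772% of the Dnah8 exons and had 0 counts in every library. AC174471.1, a noncoding transcript that is not a row of the table, covers 6.90% of the Btbd9 exons on the same strand, so its reads cannot be told from those of Btbd9. Whether counting used strand is not known, and models on the opposite strand, also without a row, cover 3.45% (AC165962.3) and 1.77% (AC165962.4) of the Glo1 exons, 1.65% of the Dnah8 exons (AC165951.2) and 1.04% of the Btbd9 exons (AC165962.1).

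**Figure D1:**
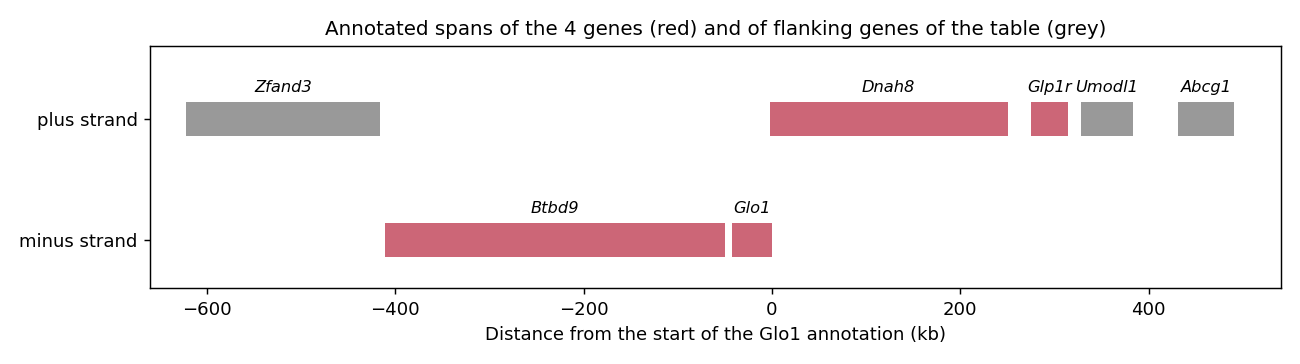
Annotated spans of Btbd9, Glo1, Dnah8 and Glp1r (red) and of the flanking genes Zfand3, Umodl1 and Abcg1 (grey) by strand, against the distance in kb from the start of the Glo1 annotation. Btbd9 and Glo1 are read from the minus strand and Dnah8 and Glp1r from the plus strand, and the 4 genes fill 725.3 kb.

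By their RefSeq starts, 30612659 and 30626936, Glo1 and Dnah8 begin 14.3 kb apart and are transcribed away from each other. The RefSeq start of Glo1 lies inside its GENCODE span given above, which begins at 30626871 on the minus strand. The promoters of the genes with non-overlapping groups are shown here. Each sequence is from RefSeq (GRCm38.p6), runs 5′ to 3′ on the gene's own strand and holds the 250 bases before the start and the first 50 of the transcript. Capitals mark matches to CCAAT (the CCAAT box) and to GGGCGG (the GC box), each searched on both strands, where 2 matches that overlap make 1 longer run. The Glo1 promoter is at chr17:30612610-30612909 on the minus strand and that of Dnah8 at chr17:30626686-30626985 on the plus strand.
Glo1: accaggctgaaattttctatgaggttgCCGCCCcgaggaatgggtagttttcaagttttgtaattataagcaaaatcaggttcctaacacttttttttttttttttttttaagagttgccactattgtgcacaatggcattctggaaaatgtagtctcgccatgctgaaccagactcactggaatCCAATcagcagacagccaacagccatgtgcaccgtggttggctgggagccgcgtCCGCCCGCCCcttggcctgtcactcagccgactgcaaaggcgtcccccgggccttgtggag
Dnah8: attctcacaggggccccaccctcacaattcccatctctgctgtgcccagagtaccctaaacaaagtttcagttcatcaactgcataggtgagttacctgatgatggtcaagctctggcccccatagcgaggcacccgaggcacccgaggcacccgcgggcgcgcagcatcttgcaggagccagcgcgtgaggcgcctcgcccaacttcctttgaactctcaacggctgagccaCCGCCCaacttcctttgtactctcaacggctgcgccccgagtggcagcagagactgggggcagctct

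The Glo1 sequence held 1 CCAAT match, 65 bases before the start, and 3 GC box matches. The Dnah8 sequence held 1 GC box match and no CCAAT match. Of 32851 promoters of this length, 37.4% held CCAAT and 35.7% held GGGCGG. Neither sequence matched CACGTG (the E box, in 7.15% of promoters), TATAAA (the TATA box, in 13.6%) or TGACNNNGC (the core of the antioxidant response element, in 12.4%). The Glp1r promoter held 3 GC box matches and was 73.7% G and C, against 49.7% for Glo1 and 60.3% for Dnah8.

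The microRNA missing from the KO-TAC hearts is shown with its seed, bases 2 to 8, in capitals, and the matches to it in the longest annotated 3′ UTR of each gene are shown with the 7 matching bases in capitals.
miR-204-5p: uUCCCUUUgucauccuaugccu
Glo1: aggaaaaaaaaAAAGGGAagccgggcggtg
Glp1r: ttgtgtgaccaAAAGGGAatactaaaggcg

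The Glo1 match lies at base 4431 of a 3′ UTR of 9202 bases that 1 of 4 coding Glo1 transcripts with a 3′ UTR carries, and the other 3 have none. Glp1r has its match at base 2790 of 4359. The longest 3′ UTRs of Dnah8 (2236 bases) and Btbd9 (4849 bases) hold no match. Across the table, 15.2% of the 19506 genes with a 3′ UTR hold one. This share was not matched for length, and a longer 3′ UTR has more places for a match.

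Mir204, the targeted gene, had 0 counts in all 6 libraries, wild type included, so it gave no check of the labels. Library totals ran from 6411538 to 8571737 counts. The table column used for KO-TAC replicate 3 carries the number of WT-TAC replicate 3 in front of a library index that KO-TAC replicate 3 alone has. It was assigned by that index, and the differences of Glo1, Dnah8 and Btbd9 are also given without it. In the heart check, all 10 ventricular myocyte markers were detected, with summed levels of 82028 to 100219 CPM in WT-TAC and 79142 to 113044 in KO-TAC. KO-TAC replicate 3 had the lowest sum of 8 atrial markers, 291 CPM, against 746 and 1314 in the other KO-TAC libraries and 842 to 1155 in WT-TAC. All 7 tested atrial markers had log2 fold changes below 0, and 0 were called.

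Glo1 had 331, 422 and 396 counts in WT-TAC replicates 1, 2 and 3, and 686, 803 and 912 in KO-TAC replicates 1, 2 and 3. Expressed per 1000000 library counts (CPM) with edgeR's TMM factors, these were 52.0, 48.3 and 54.1 CPM in WT-TAC and 100.03, 97.4 and 134.6 CPM in KO-TAC. Every KO-TAC library was above every WT-TAC library, and the lowest KO-TAC value was 1.80 times the highest WT-TAC value. The means were 51.5 ± 2.92 CPM in WT-TAC and 111 ± 20.7 CPM in KO-TAC (SD, n = 3). The fit over all genes with edgeR's quasi-likelihood model put the log2 fold change at 1.10 ± 0.19 (SE), which is 2.15-fold. KO-TAC replicate 3 was the highest library, and without it the log2 fold change was 0.94.

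Within genotypes, Glo1 varied less on the log2 scale than the median tested gene. The SD of its log2 CPM within groups was 0.191, below the median of 0.345 over all 12487 tested genes. Those genes were not matched to Glo1 for count level. The 3 WT-TAC libraries differed from each other by 5.67% (SD over the mean) and the KO-TAC libraries by 18.7%. A processed copy of Glo1, Gm13443, lies on chromosome 2 from 35340409 to 35340963. It is 99.5% identical to the Glo1 transcript over 555 bases and is not a row of the table. The sources used here do not say how reads matching both places were counted, and the Glo1 level itself is therefore uncertain. Among 7 erythroid markers, the globin genes Hba-a1, Hba-a2, Hbb-bs and Hbb-bt were at 0 in every library. The erythroid markers still summed to 44.6 to 78.0 CPM in WT-TAC and 26.7 to 56.4 CPM in KO-TAC. Whether reads that match several places were dropped was not tested.

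Dnah8 had 27, 1 and 15 counts in WT-TAC replicates 1, 2 and 3, and 136, 140 and 62 in KO-TAC replicates 1, 2 and 3. These were 4.24, 0.115 and 2.05 CPM in WT-TAC and 19.8, 16.98 and 9.15 CPM in KO-TAC. The groups did not overlap, and the lowest KO-TAC value, that of replicate 3, was 2.16 times the highest WT-TAC value. The means were 2.13 ± 2.06 CPM and 15.3 ± 5.53 CPM (SD, n = 3). On the log2 scale the difference was 2.89 ± 0.75 (SE), which is 7.41-fold.

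The size of the Dnah8 difference rests on few wild-type counts, 43 over the 3 libraries against 338 in KO-TAC. Without WT-TAC replicate 2, which had 1 count, the log2 fold change was 2.29, and without WT-TAC replicate 1 it was 3.86. Without KO-TAC replicate 3 it was 3.15. Within groups the SD of its log2 CPM was 1.36, far above the median gene. Each gene has a single count per library, so which exons of Dnah8 the reads came from cannot be seen.

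Btbd9 had 146, 152 and 125 counts in WT-TAC replicates 1, 2 and 3, and 255, 281 and 155 in KO-TAC replicates 1, 2 and 3. In CPM these were 22.9, 17.4 and 17.1 in WT-TAC and 37.2, 34.1 and 22.9 in KO-TAC. KO-TAC replicates 1 and 2 lay above all WT-TAC libraries, whereas KO-TAC replicate 3 was level with WT-TAC replicate 1, at 0.998 of its value. The means were 19.1 ± 3.28 CPM and 31.4 ± 7.53 CPM (SD, n = 3), and the log2 fold change of 0.72 ± 0.26 (SE) corresponds to 1.64-fold. That log2 value became 0.90 when KO-TAC replicate 3 was left out and 0.58 when KO-TAC replicate 1 was.

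Glp1r was near the limit of detection. It had 0, 0 and 4 counts in WT-TAC replicates 1, 2 and 3, and 2, 0 and 8 in KO-TAC replicates 1, 2 and 3. A count of 0 allows up to 0.471 and 0.344 CPM in WT-TAC replicates 1 and 2 and 0.364 CPM in KO-TAC replicate 2, at 3 counts per library and for counting error only. The groups overlapped, and Glp1r did not pass the filter on low counts. The pooled counts, 10 against 4, gave a ratio of rates of 2.56 with an exact 95% counting interval of 0.739 to 11.2, which leaves out the spread between libraries. A difference in Glp1r was not detectable at this depth.

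**Figure D2:**
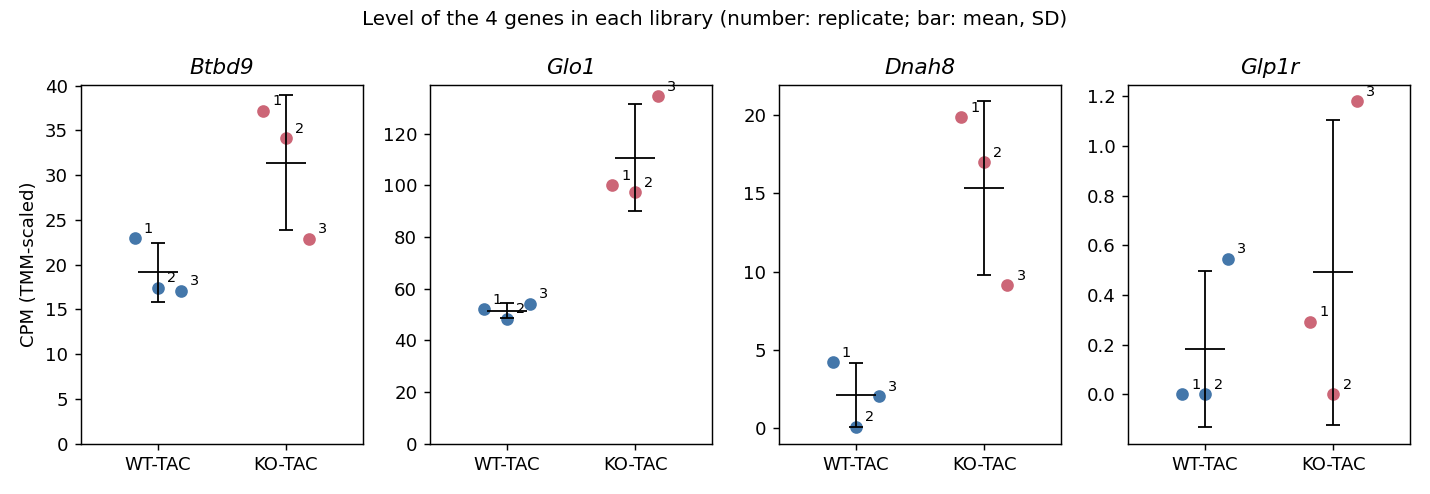
CPM (TMM-scaled) of Btbd9, Glo1, Dnah8 and Glp1r in the 3 WT-TAC (blue) and 3 KO-TAC (red) libraries, each point a library labelled by its replicate number, with the mean and SD in black. The KO-TAC points of Glo1 and Dnah8 lie above all WT-TAC points, KO-TAC replicate 3 of Btbd9 lies at 22.9 CPM beside WT-TAC replicate 1, and Glp1r stays at or below 1.18 CPM.

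Thus 2 of the 3 tested genes, Glo1 and Dnah8, were higher in every KO-TAC library than in any WT-TAC library, a pattern that 4.28% of all tested genes showed. Since the genes were chosen on this contrast, that count is no finding of its own.

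The 3 tested genes did not rank the KO-TAC libraries alike. Relative to its WT-TAC mean, Glo1 was 1.94 and 1.89 times as high in KO-TAC replicates 1 and 2 and 2.61 times in replicate 3. Btbd9 was 1.94 and 1.78 times as high in replicates 1 and 2 and 1.19 times in replicate 3. Dnah8 was 9.29 and 7.96 times as high in replicates 1 and 2 and 4.29 times in replicate 3. KO-TAC replicate 3 thus had the highest Glo1 and the lowest Dnah8 and Btbd9 of the 3 KO-TAC libraries.

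The counts of Glo1 per count of Btbd9, which are not changed by the scaling of a library, show the same library apart. They were 2.27, 2.78 and 3.17 in WT-TAC and 2.69 and 2.86 in KO-TAC replicates 1 and 2, so those 5 libraries overlapped. In KO-TAC replicate 3 the ratio was 5.88. That library also had the low atrial marker sum given above, and the part of this in its ratio was not tested. In whole-tissue RNA, fewer cells of a type and less RNA per cell cannot be told apart.

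**Figure D3:**
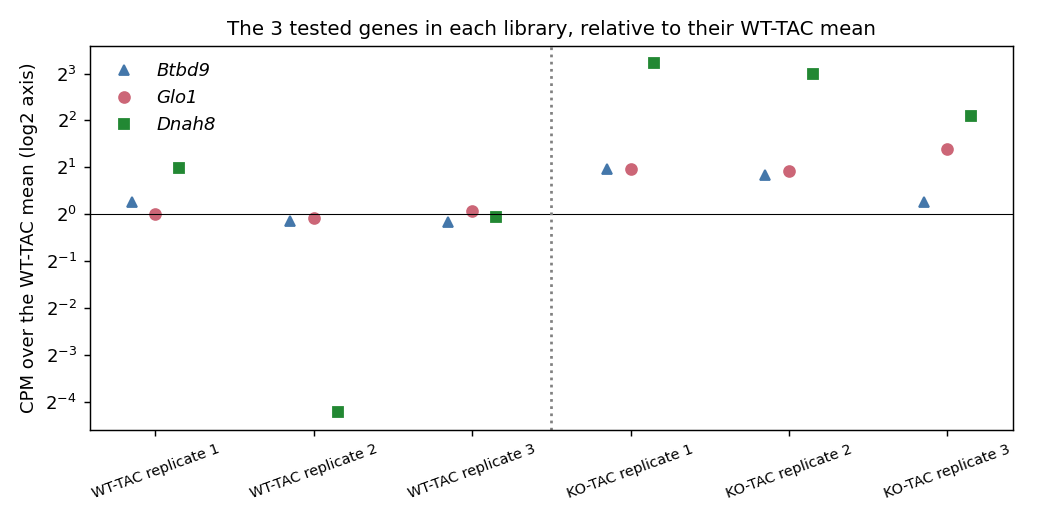
CPM of Btbd9, Glo1 and Dnah8 in each of the 6 libraries divided by the mean of the 3 WT-TAC libraries, on a log2 axis. Glo1 and Btbd9 lie close together in all libraries but KO-TAC replicate 3, where Glo1 is at 2.61 and Btbd9 at 1.19, and Dnah8 in WT-TAC replicate 2 rests on 1 count.

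Per kilobase of annotated exon, Glo1 had the highest level of the 4 genes, 4.25 ± 0.241 CPM per kb in WT-TAC against 9.14 ± 1.71 in KO-TAC (SD, n = 3). Btbd9 followed at 1.05 ± 0.180 and 1.72 ± 0.414 CPM per kb. Dnah8 stood at 0.0796 ± 0.0769 and 0.571 ± 0.206, and Glp1r at 0.0314 ± 0.0543 and 0.0844 ± 0.106 CPM per kb. In WT-TAC the values of Dnah8 and Glp1r did not differ beyond their spread. The order Glo1, Btbd9, Dnah8, Glp1r held in both genotypes with 3 choices of length, but the sizes did not. With the shortest principal transcript as the length, a choice made after the data were seen, Glo1 had 57.5 CPM per kb in WT-TAC over 895 bases, against 12101 bases of all its exons, and Btbd9 had 9.84.

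The tested genes next to the stretch had groups that overlapped. Zfand3, a zinc finger gene that ends 4.70 kb from Btbd9, had 93.2, 57.6 and 82.8 CPM in WT-TAC and 68.5, 64.8 and 71.3 CPM in KO-TAC, so its groups overlapped. The log2 fold change of Zfand3 was −0.19 ± 0.20 (SE), and edgeR's quasi-likelihood test gave it an adjusted p of 0.999. On the other side Umodl1, 13.8 kb beyond Glp1r, had 4 counts in WT-TAC and 0 in KO-TAC and was not tested. Abcg1, a cholesterol exporter 117 kb beyond Glp1r and the nearest tested gene there, had 22.1, 11.3 and 13.4 CPM in WT-TAC and 11.5, 10.2 and 7.82 CPM in KO-TAC. Its groups overlapped too, with a log2 fold change of −0.66 ± 0.33 and an adjusted p of 0.999 in edgeR.

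The other nearest tested genes had log2 fold changes of 0.08 ± 0.35 for Mdga1, 0.11 ± 0.38 for Ccdc167, 0.35 ± 0.48 for Cmtr1 and −0.10 ± 0.23 for Tbc1d22b on the side of Btbd9. On the side of Glp1r they were 0.08 ± 0.32 for Slc37a1, 0.44 ± 0.46 for Pde9a, 0.32 ± 0.35 for Wdr4 and 0.23 ± 0.21 for Ndufv3, a subunit of respiratory complex I. Each had an adjusted p of 0.999 in edgeR, and in each the groups overlapped. The adjustment gave this same value to genes with unadjusted p in edgeR as far apart as 0.0673 (Abcg1) and 0.831 (Mdga1). An adjusted p of 0.999, here or below, therefore does not show that a gene was unchanged.

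Within 2 Mb of the 4 genes the table held 86 other genes, of which 45 were tested, 25 on the side of Btbd9 and 20 on that of Glp1r. Of these 23 had log2 fold changes above 0 and 22 below, with a median of 0.08 against 0.0012 over all tested genes and a range of −0.66 to 0.96. edgeR called 0 of them at an adjusted p under 0.05, against 0.0240% of all tested genes, and DESeq2, which called 16 genes in the table, also called 0. The count of limma-voom bears on none of this, since it called 0 genes in the whole table. At an unadjusted p under 0.05 there was 1 (2.93% of all tested genes), Cdkn1a, a cell cycle inhibitor named after its value was seen, with a log2 fold change of 0.96 ± 0.41 and an unadjusted p of 0.0345 in edgeR. Its KO-TAC values, 15.2, 13.2 and 29.1 CPM, overlapped its WT-TAC values of 10.99, 13.6 and 4.78. Without WT-TAC replicate 1, WT-TAC replicate 2 or KO-TAC replicate 3, the number at an unadjusted p under 0.05 was 3, 2 and 2. Among the 45 genes 1 was higher in every KO-TAC library than in any WT-TAC library, against 4.28% of all tested genes. It was Pim1, a kinase gene also named after its value was seen, with a log2 fold change of 0.46 ± 0.27 and an adjusted p of 0.999 in edgeR.

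**Figure D4:**
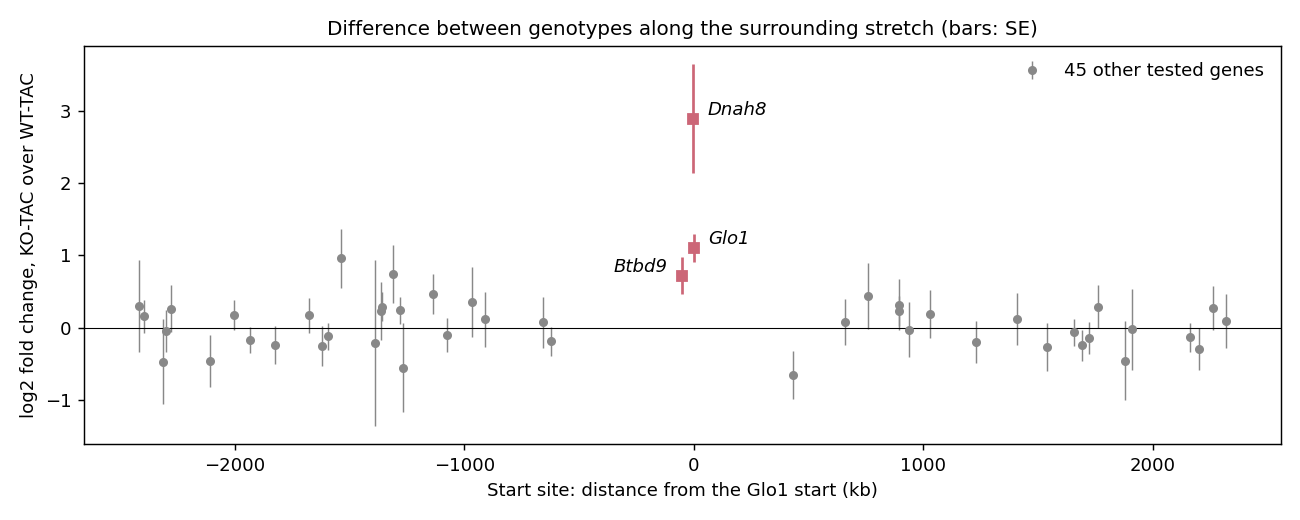
Log2 fold change of KO-TAC over WT-TAC with its SE, against the distance in kb of each gene's GENCODE start from that of Glo1. Btbd9, Glo1 and Dnah8 are red and 45 other tested genes within 2 Mb are grey. The other genes lie between −0.66 and 0.96, and Glo1 at 1.10 and Dnah8 at 2.89 stand above them, while Btbd9 at 0.72 lies within their range.

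In a list of genes tied to methylglyoxal, to glycolysis as its source or to its end products, 0 were called. Hagh, the glyoxalase II that completes the pathway and also lies on chromosome 17, had 30.7 ± 1.63 CPM in WT-TAC and 30.2 ± 4.49 CPM in KO-TAC (SD, n = 3), with −0.02 ± 0.22 as its log2 fold change. Park7, a protein with deglycase activity reported against methylglyoxal adducts, had 102 ± 1.84 and 101 ± 12.8 CPM, a log2 fold change of −0.01 ± 0.18. The most abundant genes of the list were Ldha, the lactate dehydrogenase, at 323 ± 26.5 and 397 ± 18.3 CPM, and Tpi1, the triose phosphate isomerase, at 233 ± 3.62 and 260 ± 50.3 CPM. Ldha had no overlap between the groups and a log2 fold change of 0.30 ± 0.18, with an adjusted p of 0.999 in edgeR. Of 21 tested genes in the list, 12 had log2 fold changes above 0 and 9 below, with a median of 0.06. edgeR and DESeq2 called 0, and edgeR gave 0 at an unadjusted p under 0.05. Akr1b3, an aldose reductase gene, was listed at 0 in every library. How reads matching several places were counted is not known, so this 0 does not show that the gene was silent.

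Glutathione, the partner that Glo1 needs, is made and used by 33 tested genes of a second list, of which 15 had log2 fold changes above 0 and 18 below (median −0.02). edgeR and DESeq2 called 0. At an unadjusted p under 0.05 there was 1 in edgeR, Gpx3, the secreted glutathione peroxidase, at 848, 377 and 432 CPM in WT-TAC and 423, 244 and 222 CPM in KO-TAC. These groups overlapped, with a log2 fold change of −0.90 ± 0.33 and an adjusted p of 0.999 in edgeR. Gclc and Gclm, the subunits of the enzyme that limits glutathione synthesis, had log2 fold changes of −0.22 ± 0.32 and 0.15 ± 0.31.

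Of the 11 Dnah heavy chain genes in the table, Dnah8 had the highest mean CPM per kb in KO-TAC. Since Dnah8 was chosen on the contrast of KO-TAC with WT-TAC, this rank is no finding of its own. In KO-TAC Dnah8 stood at 0.571 ± 0.206 CPM per kb, and the next highest was Dnah7b at 0.165 ± 0.111. In WT-TAC it stood at 0.0796 ± 0.0769, below Dnah7b at 0.140 ± 0.0323 and within the range of the others, which ran from 0.0132 for Dnah11 upward. Of 31 genes of axonemal dynein and motile cilia in the table, 8 were tested, 2 with log2 fold changes above 0 and 6 below (median −0.47). edgeR and DESeq2 called 0, and edgeR gave 0 at an unadjusted p under 0.05. The most abundant were the light chains Dnal4, at 15.0 ± 8.18 and 12.2 ± 2.57 CPM, and Dnal1, at 12.4 ± 1.77 and 8.34 ± 0.930 CPM. Markers of motile ciliated cells summed to 1.95 to 5.81 CPM in WT-TAC and 1.77 to 4.12 in KO-TAC. Those of male germ cells summed to 0.785 to 2.73 CPM in WT-TAC and 0 to 0.583 in KO-TAC, with Tnp1, Tnp2, Prm1, Prm2 and Acrv1 at 0 in every library.

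Another list held cullin 3, genes that act with it and BTB-domain genes other than Btbd9. Of its 53 tested genes, 26 had log2 fold changes above 0 and 27 below (median −0.01). Cul3 itself had 189 ± 21.8 CPM in WT-TAC and 164 ± 57.2 CPM in KO-TAC (SD, n = 3), with −0.21 ± 0.23 as its log2 fold change. edgeR and DESeq2 called 0. At an unadjusted p under 0.05 there was 1 in edgeR, Btbd6, at 7.53, 11.1 and 9.02 CPM in WT-TAC and 13.9, 15.6 and 17.7 CPM in KO-TAC. Its groups did not overlap, and its log2 fold change of 0.76 ± 0.30 had an adjusted p of 0.999 in edgeR.

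The list around Glp1r holds the incretin hormones, their receptors and the related class B1 receptors with their signalling partners. The hormone genes Gcg and Gip had 0 and 1 counts in all. Gipr, the receptor for the other incretin, had 36 counts in WT-TAC and 1 in KO-TAC and did not pass the filter. It stood at 3.92, 1.15 and 0.137 CPM in WT-TAC replicates 1, 2 and 3, so most of those counts came from replicate 1. Of 21 tested genes, 10 had log2 fold changes above 0 and 11 below (median −0.05), and edgeR and DESeq2 called 0. Adcyap1r1, the receptor for the peptide PACAP, was the 1 gene at an unadjusted p under 0.05 in edgeR, with 6.12, 7.90 and 4.65 CPM in WT-TAC and 11.1, 11.9 and 10.0 CPM in KO-TAC. Its groups did not overlap, and its log2 fold change of 0.82 ± 0.35 had an adjusted p of 0.999 in edgeR.

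Markers of the cell types in which Glp1r is known were read beside its counts. Sinoatrial node markers, all 6 detected, summed to 38.1 to 56.0 CPM in WT-TAC and 48.5 to 72.9 in KO-TAC. Replicate 3 of KO-TAC, which had the most Glp1r counts, had the highest sinoatrial sum but the lowest atrial sum, 291 CPM, and the lowest smooth muscle sum, 160 CPM. Smooth muscle markers summed to 306 to 454 CPM in WT-TAC and 160 to 334 in KO-TAC, with 6 of 6 having log2 fold changes below 0 and 0 called. Pancreatic beta cell markers, which the heart should lack, summed to 0 to 0.916 CPM in WT-TAC and 0.121 to 0.729 in KO-TAC. The part of these cell types in the Glp1r counts was not tested.

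**Figure D5:**
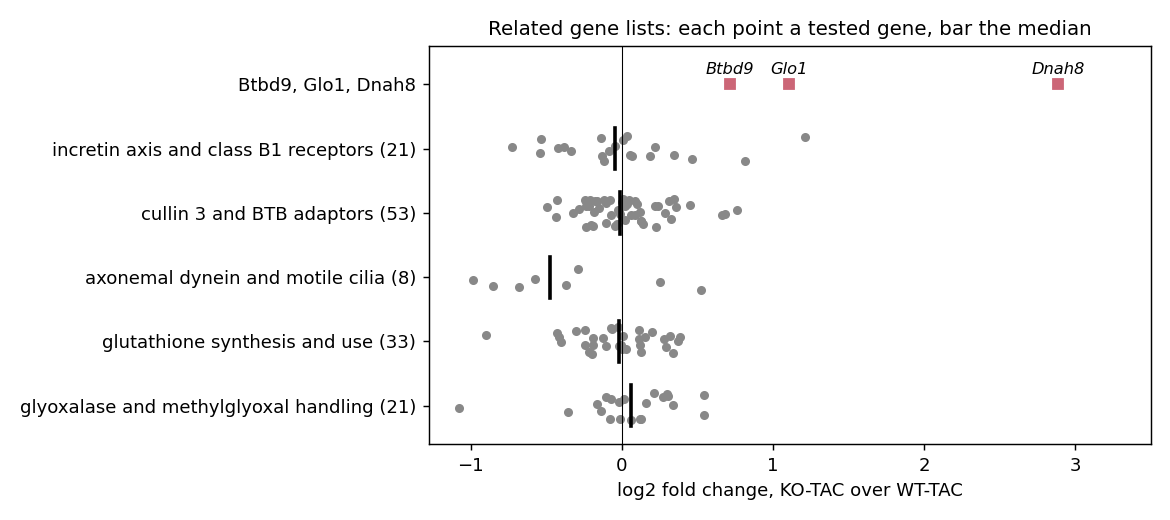
Log2 fold change of KO-TAC over WT-TAC for each tested gene (grey points) of 5 lists, with the number tested in brackets and the median as a black bar, beside Btbd9, Glo1 and Dnah8 (red squares). The medians run from −0.47 for axonemal dynein and motile cilia to 0.06 for glyoxalase and methylglyoxal handling. The point of 1 listed gene, Vipr1 at 1.21 ± 0.66 (SE), lies above Glo1 at 1.10 ± 0.19, but the groups of Vipr1 overlapped.

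The tested genes whose log2 CPM followed Glo1 most closely over the 6 libraries lay elsewhere. They were Snapc1 on chromosome 12 (Pearson r = 0.987), Senp8 on chromosome 9 (0.986), Rbm45 on chromosome 2 (0.985), Cpne8 on chromosome 15 (0.984) and Ppp4r1 (0.977), the last on chromosome 17 but at 65782573, far from Glo1. The 6 libraries fall into separate groups by genotype for Glo1, so a high r here largely reflects that both genes differ between the genotypes. All 5 had KO-TAC libraries above all WT-TAC libraries, and their log2 fold changes, 0.39 ± 0.23, 0.84 ± 0.35, 0.67 ± 0.26, 0.62 ± 0.27 and 0.41 ± 0.19, were smaller than that of Glo1. With Spearman's rho the likeness of Snapc1 and of Ppp4r1 was 0.77.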

How the data were processed

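The authors deposited 1 table of raw read counts, whole numbers per gene symbol with 1 column per library. Tools listed in the submitters' processing notes, without their roles, are HISAT2 2.1.0, Subread, FastQC and edgeR, and the build is GRCm38 (mm10). The labels' protocols name plain and stranded TruSeq kits without saying which a sample had, so strand was not used. All 6 columns were used, and 0 were left out.

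Genes passed filterByExpr (minimum count 10), libraries were scaled by TMM, and edgeR 4.0.16 in R 4.3.3 compared KO-TAC with WT-TAC in a robust quasi-likelihood fit with no covariate. Of 24404 genes, 6680 had no count and 12487 were tested, with Benjamini-Hochberg adjustment over all of them; an adjusted p under 0.05 is a call. Each SE was obtained by dividing the size of the log2 fold change by the root of the test's F. Log2 CPM used a prior count of 2.

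Positions and exon lengths come from GENCODE M21 (GRCm38): 23309 symbols matched by current name, 667 by an older one and 428 to no single gene. Promoters and miR-204-5p come from RefSeq (GRCm38.p6), where 3 of the 4 genes had a promoter; Btbd9 is named only.

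The genes and lists were chosen with earlier results of these data known. Named are the 4 genes, those of the table between them, the 5 nearest tested genes on each side, up to 4 genes per list at an unadjusted p under 0.05 (otherwise the 2 most abundant), and the 5 most like Glo1. A few partners of the 4 genes were named in addition, after their values were seen: Umodl1, Hagh, Park7, Akr1b3, Gclc, Gclm, Dnah7b, Dnah11, Cul3, Gcg, Gip, Gipr and Vipr1. Alternatives were other scalings and filters, DESeq2 1.42.0, limma-voom (limma 3.58.1), a replicate block, each library left out, windows of 1 and 5 Mb and other lengths.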

Additional observations from a re-analysis of the deposited data

How the results depend on the processing

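Glo1, Dnah8 and Btbd9 kept fold changes above 0 with every library left out and every setting tried. Log2 values over these settings ran from 0.94 to 1.19 for Glo1, from 2.29 to 3.89 for Dnah8 and from 0.58 to 0.90 for Btbd9. The highest value of Dnah8 is that of limma-voom. Each moved by less than its SD within groups, which for Dnah8 was as wide as 1.36. Dnah8 moved by more than its SE of 0.75 in limma-voom and without WT-TAC replicate 1.

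The number of genes called over the whole table, 3, was 16 in DESeq2, 21 with no filter on low counts and 0 in limma-voom (376 at an unadjusted p under 0.05), and from 0 to 7 with 1 library left out. Leaving out WT-TAC replicate 1 gave 0 (437 at an unadjusted p under 0.05), KO-TAC replicate 2 gave 7 and KO-TAC replicate 3 gave 6. At an unadjusted p under 0.05 the 366 genes became 672 with no filter and 297 to 723 with 1 library left out. Within 2 Mb the single gene at an unadjusted p under 0.05 became 2 in DESeq2, 2 with no filter, and 1 to 3 with 1 library left out. A window of 1 Mb held 0 of 20 tested genes. One of 5 Mb held 14 of 207, or 6.76% against 2.93% of all tested genes, and 2 of the 3 genes called in the whole table, Cacna1h and H2-Ea-ps. In the related lists the 3 genes at an unadjusted p under 0.05 became 10 with no filter and 2 to 9 with 1 library left out, the most without KO-TAC replicate 3; 0 were called in any setting. The cause of these changes was not tested.

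With the replicate number as a replicate block, 6 genes were called over the table and 574 had an unadjusted p under 0.05, 5 of them in the lists. Deviations of same-numbered libraries correlated at 0.135, 0.0111 and 0.257, and those of differently numbered libraries at −0.223 to 0.146. Not every library correlated best with its own number. These values do not settle whether the numbers pair the samples. Depth limits Glp1r and the wild-type level of Dnah8.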
